A study of Mus musculus with 7 samples.

Results

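The genes described here are 7 that make, package, take up or break down the inhibitory transmitter GABA: *Gad1*, *Gad2*, *Slc32a1*, *Slc6a11*, *Slc6a13*, *Abat* and *Aldh5a1*. They were chosen by gene symbol from the 47729 genes of the deposited count table, and all 7 were among the 19684 genes with enough counts to be tested. They were measured by RNA sequencing in forebrain taken at postnatal day 15 (P15), in 4 control (*Lhx6*+/-) and 3 mutant (*Lhx6*-/-) libraries. Every animal was an F1(C57BL/6 X 129Sv) mouse carrying the *Lhx6*tm2Vpa allele, on 1 chromosome in controls and on both in mutants, so no wild-type forebrain was included. The allele was inherited and not restricted to a cell type by Cre. Each library held RNA of 2 animals, and p-values therefore measure the spread among pools.

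GABA is made from glutamate by the 2 glutamate decarboxylases, GAD67 (*Gad1*) and GAD65 (*Gad2*), which need pyridoxal phosphate as cofactor. GAD67 is found throughout the neuron and supplies most of the GABA of the brain, whereas GAD65 is concentrated at nerve terminals. The vesicular transporter encoded by *Slc32a1* loads GABA into synaptic vesicles, and these 3 genes together mark GABAergic neurons. Released GABA is taken up by transporters of the plasma membrane, among them GAT-3 (*Slc6a11*), which is mainly astrocytic, and GAT-2 (*Slc6a13*), which in brain is found mainly in the leptomeninges. GABA transaminase (*Abat*) converts GABA to succinic semialdehyde, and succinic semialdehyde dehydrogenase (*Aldh5a1*) passes the carbon to the citric acid cycle. *Lhx6* encodes a LIM homeodomain factor needed by cortical interneurons (CIs) from the medial ganglionic eminence (MGE). The number of GABAergic cells in mutant cortex and their origin in the MGE or the caudal ganglionic eminence (CGE) were questions of the study, and these transcripts bear on the same cells.

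Libraries are named by genotype and by the number in their column, and values are always given in the order 2, 3, 10, 11 for controls and 5, 12, 13 for mutants. Their totals ran from 32556304 to 38069151 expected counts. *Lhx6* had 615, 522, 476 and 522 normalized counts (counts scaled to a common library size) in controls and 70.9, 76.6 and 70.1 in mutants, a fall to 13.6% of the control mean (adjusted p = 5.99e-05 from edgeR). On the first principal component libraries 2, 3 and 5 stood apart from libraries 10 to 13, so values are also given within each run of numbers, a grouping known from earlier results of these data. What else these runs share is not given in the sources used here. The 5 forebrain markers summed to between 5357 and 6845 normalized counts per library, and 5 hindbrain and cerebellar markers to between 16.1 and 65.3, with *Hoxb4*, *Hoxa5*, *Gabra6* and *En1* below the filter on low counts.

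The 2 decarboxylase genes and *Slc32a1* all lie on chromosome 2 of GRCm38, as does *Lhx6* itself. *Gad1* spans 70553072 to 70602014 (plus strand) with 8 annotated transcripts, which are summed in its count. *Gad2* spans 22622205 to 22693874 (plus strand), 13.4 Mb from *Lhx6*, against 34.5 Mb for *Gad1*. *Slc32a1* spans 158610767 to 158615748 (plus strand), 122.5 Mb away. Whether sequence linked to the targeted allele differed between genotypes was not tested. The start regions of these 3 genes are shown because the same neurons use all 3 genes, while their mutant levels were 141%, 139% and 97.3% of control. RefSeq (GRCm38.p6) windows of 250 bases before to 50 after the start were matched for 6 of the 7 genes. The lines give, 5′ to 3′ on the coding strand, the longest part before the RefSeq start not marked as exon by Ensembl release 84. They lie at chr2:70561879-70562041, chr2:22622077-22622204 and chr2:158610724-158610757, with capitals for a motif hit.
Gad1: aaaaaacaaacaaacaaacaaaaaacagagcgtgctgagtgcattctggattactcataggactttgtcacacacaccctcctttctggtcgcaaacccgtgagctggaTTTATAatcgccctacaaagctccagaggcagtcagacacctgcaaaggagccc
Gad2: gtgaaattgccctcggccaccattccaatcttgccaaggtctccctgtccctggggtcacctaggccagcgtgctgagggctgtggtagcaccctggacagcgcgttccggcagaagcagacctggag
Slc32a1: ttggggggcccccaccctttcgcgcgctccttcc

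The whole windows were searched on both strands for the homeodomain core TAATTA, the cyclic AMP response element TGACGTCA, the TATA sequence TATAAA and the GC box GGGCGG. The *Gad1* window held 1 TATAAA, on the minus strand and shown in capitals, and 1 GGGCGG, which lies in the part marked as exon and is not shown. No match was found in the *Gad2* and *Slc32a1* windows, and the *Slc6a11* window, with a GC content of 72.3%, held 4 GGGCGG. Among all 32851 windows of 300 bases, 5.29% held TAATTA, 1.79% TGACGTCA, 13.6% TATAAA and 35.7% GGGCGG. The windows of the 3 genes shown had a GC content of 60.0%, 61.3% and 63.3% in the order given above, against a median of 52.7% over all windows.

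None of the 7 genes passed an adjusted p-value threshold of 0.05 between genotypes (quasi-likelihood test of edgeR, Benjamini-Hochberg adjustment over all tested genes). Across all tested genes this threshold called 2.97% higher and 1.87% lower in mutants, 4.85% in all. Before adjustment, 3 of the 7 had a p-value under 0.05: *Gad1*, *Gad2* and *Slc6a11*, where 18.2% of all tested genes did. DESeq2 called 2, *Gad1* and *Gad2*, both higher in mutants, where it called 5.09% of all genes higher and 3.70% lower, and limma-voom called 0. The genotypes did not overlap for 2 of the 7 genes (19.7% of all tested genes), *Gad1* with mutants above (10.7% of all) and *Slc6a11* with mutants below (9.00%). The median log2 fold change was 0.019 over the 7 genes and -0.013 over all tested genes, and the median absolute log2 fold change was 0.10 against 0.17. In bulk tissue fewer cells of a type and less RNA per cell cannot be told apart.

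**Figure D1:**
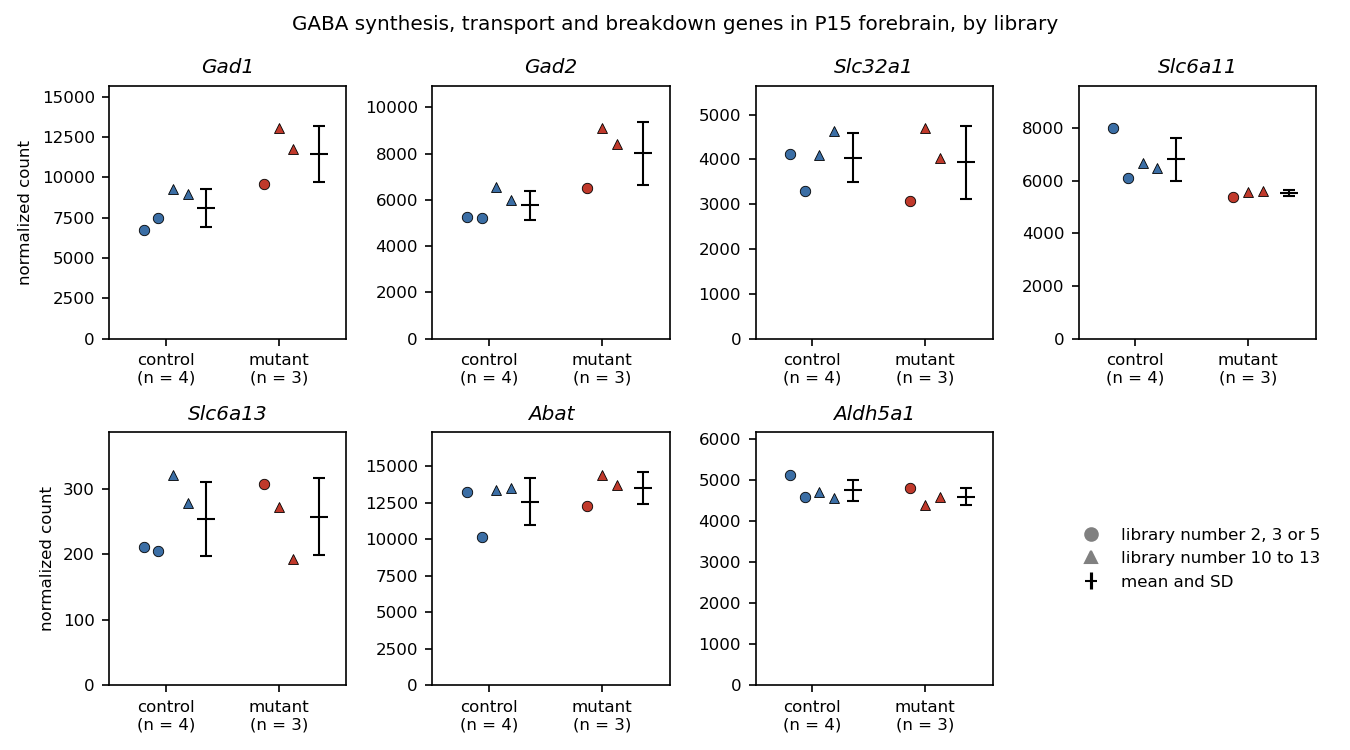
Normalized count (y axis, from 0) of each of the 7 GABA genes in every library, control in blue (n = 4 pools) and mutant in red (n = 3 pools), with the mean and SD beside the points; circles are libraries 2, 3 and 5 and triangles libraries 10 to 13. *Gad1* is above all controls and *Slc6a11* below all controls in the 3 mutant libraries, and the genotypes overlap for the other 5 genes.

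*Gad1* (ENSMUSG00000070880) was at 6727, 7454, 9240.3 and 8932 normalized counts in the controls, against 9547, 13043 and 11720.3 in the mutants. All mutants lay above all controls, but mutant library 5 was close to the 2 highest controls. The control mean was 8088 ± 1196 (SD, n = 4 pools), and the mutant mean of 11437 ± 1765 (SD, n = 3 pools) was 141% of it. The log2 fold change was 0.50 (standard error 0.144, 95% interval 0.17 to 0.83, adjusted p = 0.0951 from edgeR). Controls 10 and 11 were above controls 2 and 3 by 0.36 on the log2 scale. Within libraries 2, 3 and 5 the log2 fold change of *Gad1* was 0.43 and within libraries 10 to 13 it was 0.45. With the run of numbers as covariate, *Gad1* was called higher in mutants (0.44, adjusted p = 0.00586 from edgeR); this fit called 6.16% of all genes higher and 5.04% lower. Of the words of 36 bases in *Gad1* transcripts, 3.00% also occur elsewhere, most often in the pseudogene *Gad1-ps*, which had at most 18.2 normalized counts in a library.

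*Gad2* (ENSMUSG00000026787) gave a difference of similar size. Normalized counts of the controls were 5269, 5225, 6538 and 5990.5, and those of the mutants 6492, 9099.9 and 8426. Mutant library 5 fell just below control library 10, so the genotypes overlapped, while mutant libraries 12 and 13 lay far above every control. The mean went from 5755 ± 629 (SD, n = 4 pools) to 8006 ± 1354 (SD, n = 3 pools), 139% of control, with a log2 fold change of 0.48 (standard error 0.133, 95% interval 0.17 to 0.78, adjusted p = 0.0862 from edgeR). Within the 2 runs of library numbers the log2 fold changes were 0.31 and 0.48. It was called higher with the run as a covariate (0.41, adjusted p = 0.00768 from edgeR), in libraries 10 to 13 alone (0.49, adjusted p = 0.00628 from edgeR, a fit chosen after the values were seen) and without mutant library 5 (0.61, adjusted p = 0.0368 from edgeR). In libraries 10 to 13 alone, *Gad1* was called as well (0.45, adjusted p = 0.00926 from edgeR), and 5.36% of all genes were called higher and 4.08% lower. Without mutant library 5 these shares were 1.69% and 0.721%.

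The balance of the 2 decarboxylases did not differ detectably between genotypes. Per kilobase of merged exon, there were 0.982, 1.10, 1.09 and 1.15 *Gad1* counts for each *Gad2* count in controls, and 1.13, 1.10 and 1.07 in mutants. The mutant values lay within the control range, and the mean log2 ratio differed by 0.032 (two-sided exact permutation test, p = 0.743, where 4 against 3 libraries can give no p below 0.0571). It differed by 0.12 within libraries 2, 3 and 5 and by -0.040 within libraries 10 to 13.

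*Slc32a1* (ENSMUSG00000037771), the vesicular transporter, was near its control level in mutants. Controls had 4131, 3298, 4104 and 4635 normalized counts, mutants 3077, 4699 and 4020.4. The mutants spanned the whole control range, with library 5 below every control and library 12 above. Means were 4042 ± 553 (SD, n = 4 pools) and 3932 ± 815 (SD, n = 3 pools), and the log2 fold change was -0.040 (standard error 0.158, 95% interval -0.40 to 0.32, adjusted p = 0.936 from edgeR). Within the 2 runs the log2 ratio of means was -0.27 and -0.0032, and an edgeR fit of libraries 10 to 13 alone gave 0.0040. Exons of the antisense gene *Gm14205* cover 24.9% of the exon length of *Slc32a1*, and the counting is not stated to use strand. *Gm14205* had 3.83 normalized counts in mutant library 5 and 0 in the other libraries.

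The ratio of *Slc32a1* to each decarboxylase was lower in every mutant library. Per kilobase of exon, the ratio of *Slc32a1* to *Gad1* was 1.68, 1.21, 1.21 and 1.42 in controls and 0.880, 0.984 and 0.937 in mutants. For *Slc32a1* to *Gad2* the values were 1.65, 1.33, 1.32 and 1.63 in controls and 0.996, 1.08 and 1.00 in mutants. Neither ratio overlapped between genotypes. On average the ratio in mutants was 68.3% of control for *Gad1* and 69.8% for *Gad2*. Mean log2 ratios differed by -0.55 and -0.52 (two-sided exact permutation test, p = 0.0571 for each, the smallest this design can give, or 0.0857 after Benjamini-Hochberg adjustment over the 3 ratios computed). Within libraries 2, 3 and 5 the differences were -0.69 and -0.57, against -0.45 and -0.49 within libraries 10 to 13. These 2 ratios were chosen after the values were seen, so the test is not independent of the choice.

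**Figure D2:**
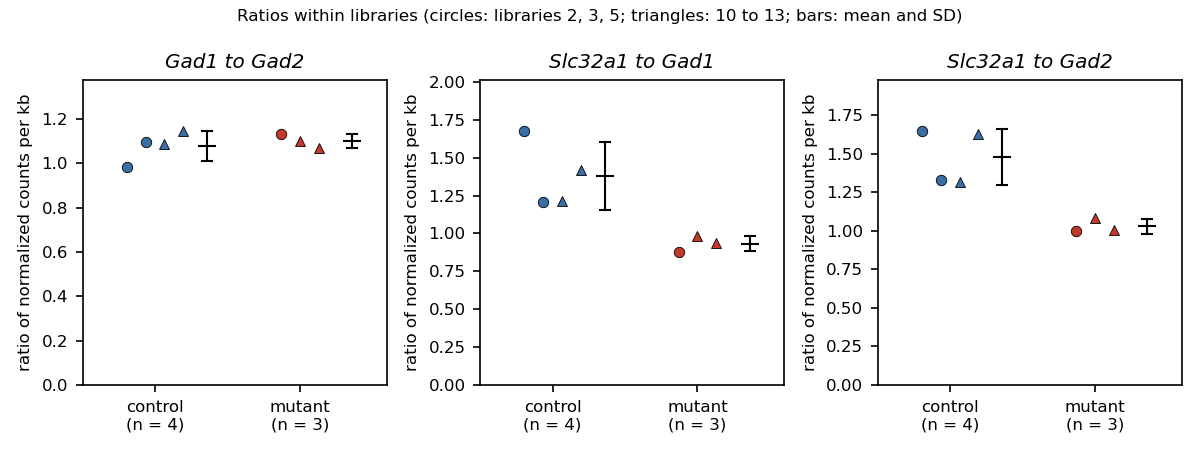
Ratio of normalized counts per kilobase of merged exon (y axis, from 0) within each library for *Gad1* to *Gad2*, *Slc32a1* to *Gad1* and *Slc32a1* to *Gad2*, control in blue (n = 4 pools) and mutant in red (n = 3 pools), with mean and SD. The *Gad1* to *Gad2* ratio overlaps between genotypes, whereas both *Slc32a1* ratios are lower in all mutant libraries than in any control, the highest mutant being 0.984 for *Gad1* and 1.08 for *Gad2*.

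Markers of the cells that carry these genes are given beside them. Of 9 markers of MGE-derived interneurons, 5 were lower and 1 higher in mutants (edgeR, adjusted p of 0.05 or less), with a median log2 fold change of -0.61. The lower ones were *Lhx6*, *Sst* (somatostatin, -3.19), *Pvalb* (parvalbumin, -3.05), the synaptic adhesion gene *Elfn1* (-0.86) and the potassium channel gene *Kcnc1* (-0.61). The one called higher was *Tac1* (0.83), a peptide gene that striatal neurons also express. Those not called were *Satb1* (-0.16), the most abundant of the list, *Sox6* (-0.30) and *Nkx2-1* (1.03). *Nkx2-1* was higher in all mutants than in any control, at means of 60.7 and 29.7 normalized counts. Of 10 markers of CGE-derived interneurons, 4 were higher and none lower (*Vip* at 0.94, *Cnr1* at 0.87, *Ndnf* at 0.65 and *Adarb2* at 0.63), with a median of 0.49. The log2 fold change was positive for 7 of the 10 and negative for 3, *Calb2* (-0.57), *Nr2f2* (-0.41) and *Prox1* (-0.067), and the abundant *Reln* was at 0.11, none of these 4 being called. The MGE list summed to between 21084.5 and 23588 normalized counts in controls and 12490.1 and 13697.5 in mutants, and the CGE list to between 15613 and 19284 and between 22943 and 26118. The summed levels of both lists separated the genotypes, and *Gad1* and *Gad2* together had 11996 to 15778 counts in controls and 16039 to 22143 in mutants. The 4 CGE calls were among 8 markers called higher over all lists. Without mutant library 12, or without mutant library 13, 1 marker was called higher. The part of each interneuron class in the decarboxylase levels was not tested.

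Of 5 transcription factor and associated genes shared by GABAergic lineages, 1, the noncoding *Dlx6os1*, was called higher (0.68), the median log2 fold change was 0.012, and their sum overlapped (2159 to 2969.9 in controls, 2463 to 2997 in mutants). Striatal projection neurons, the main GABAergic cells of the striatum, also carry *Gad1*, *Gad2* and *Slc32a1*. Of their 9 markers, 8 had a positive log2 fold change and 1, the enkephalin precursor *Penk*, was called higher. Their sum was 20310, 25380, 19762 and 28940 in controls and 26212, 37434 and 32489 in mutants. The genotypes overlapped in that sum, and without *Penk* they also did (17308 to 25422 against 20052 to 29435). Mutant libraries 12 and 13, which had the most *Gad1* and *Gad2*, also had the highest striatal sums, and the part of striatal tissue in the decarboxylase levels was not tested. Control library 11 had a striatal sum above that of mutant library 5, with less *Gad1* and *Gad2*.

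**Figure D3:**
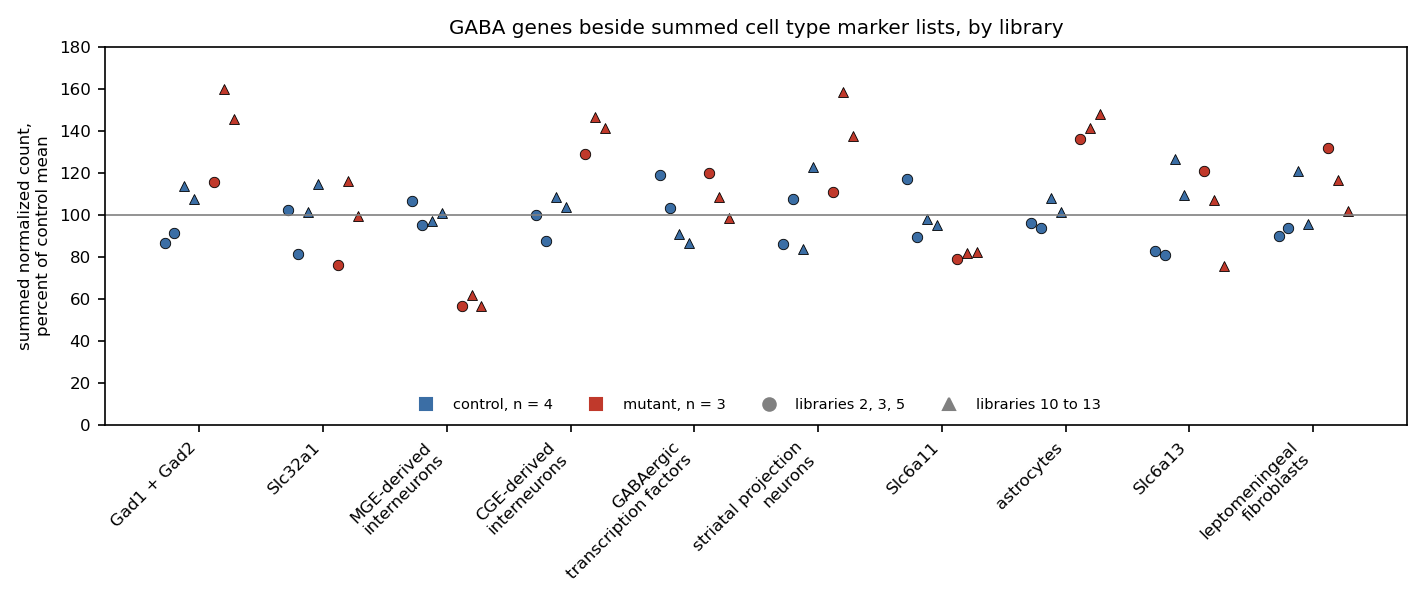
Normalized counts in each library as a percent of the control mean (y axis, from 0), for the sum of *Gad1* and *Gad2*, for *Slc32a1*, *Slc6a11* and *Slc6a13*, and for the summed marker lists of the cell types that could carry them; blue is control (n = 4 pools), red mutant (n = 3 pools), circles libraries 2, 3 and 5, triangles libraries 10 to 13. The MGE list is lower and the CGE and astrocyte lists higher in all mutant libraries, and *Slc6a11* is lower in all mutant libraries.

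*Slc6a11* (ENSMUSG00000030307, chromosome 6, 114131241 to 114249952, plus strand) was the one gene of the 7 with all mutants below all controls. Its normalized counts were 8011, 6124, 6679.5 and 6494 in controls, and 5392, 5581 and 5622 in mutants. The mutants were tightly grouped, and control library 2 was well above the other controls. Means were 6827 ± 823 (SD, n = 4 pools) and 5532 ± 122 (SD, n = 3 pools), 81.0% of control. The log2 fold change was -0.30 (standard error 0.102, 95% interval -0.54 to -0.070, adjusted p = 0.154 from edgeR). Libraries 2, 3 and 5 gave -0.39 and libraries 10 to 13 gave -0.23, and without control library 2 it was -0.22. No alternative called it, the smallest adjusted p being 0.0595 with DESeq2.

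Of 9 astrocyte markers, 8 had a positive log2 fold change and 1, *Gfap*, the intermediate filament of astrocytes, was called higher, at 385% of the control level. The list summed to between 58862 and 67818 normalized counts in controls and 85486 and 92786 in mutants. Without *Gfap* the sums overlapped, at 52624 to 60563 in controls and 59480 to 66309 in mutants, where *Slc6a11* was at 81.0% of control. *Aldoc*, the most abundant of the list, *Gja1* and *Fgfr3* gave 0.082, 0.30 and 0.20 and did not pass. Neither did *Aqp4*, named for the size of its change, at 150% of control (0.59, adjusted p = 0.0716 from edgeR). The genotypes did not overlap for 4 of the 9 markers, *Gfap*, *Aqp4*, *Gja1* and *Fgfr3*, each with mutants above. The part of astrocytes in the *Slc6a11* level was not tested.

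*Slc6a13* (ENSMUSG00000030108, chromosome 6, 121300227 to 121337733, plus strand) was the least abundant of the 7. Controls were at 211, 205, 321 and 278 normalized counts and mutants at 307, 272 and 192. The genotypes overlapped fully, with means of 254 ± 56.1 (SD, n = 4 pools) and 257 ± 59.1 (SD, n = 3 pools) and a log2 fold change of 0.019 (standard error 0.214, 95% interval -0.47 to 0.51, adjusted p = 0.980 from edgeR). The 2 runs of library numbers gave opposite signs, 0.57 in libraries 2, 3 and 5 and -0.37 in libraries 10 to 13. The 7 markers of leptomeningeal and perivascular fibroblasts, among which are the cells known to express it, had a median log2 fold change of 0.18 with none called, and their sum overlapped (4609 to 6194 in controls, 5235 to 6767 in mutants). *Slc6a12*, the betaine and GABA transporter gene next to it on chromosome 6 (121343076 to 121365775), had 25.1 to 47.0 normalized counts in controls and 37.9 to 55.6 in mutants (log2 fold change 0.34, adjusted p = 0.603 from edgeR).

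Neither breakdown gene differed detectably between genotypes. *Abat* (ENSMUSG00000057880, chromosome 16, 8513429 to 8621568, plus strand) was at 13249, 10156, 13385 and 13505.5 normalized counts in the 4 controls, and the 3 mutants were at 12294, 14433 and 13740.0. The genotypes overlapped, and control library 3 stood below all others. Means were 12574 ± 1616 (SD, n = 4 pools) and 13489 ± 1091 (SD, n = 3 pools). The log2 fold change was 0.10 (standard error 0.119, 95% interval -0.17 to 0.37, adjusted p = 0.741 from edgeR). Without control library 3 it was 0.012.

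*Aldh5a1* (ENSMUSG00000035936, chromosome 13, 24907579 to 24937661, minus strand) varied least of the 7 among controls. It was at 5135, 4585, 4709.8 and 4566 normalized counts there and at 4804, 4384 and 4585 among mutants, and the genotypes overlapped. Its coefficient of variation was 5.58% in controls and 4.57% in mutants (2.21% for *Slc6a11* in mutants), against 22.1% and 23.0% for *Slc6a13*, the most variable. The log2 fold change was -0.049 (standard error 0.0781, 95% interval -0.23 to 0.13, adjusted p = 0.821 from edgeR). This was the narrowest interval of the 7, and it leaves out changes of the size seen for *Gad1* and *Gad2*. Genes on the opposite strand overlap 10.7% of its exon length.

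Per kilobase of merged exon, the order of levels changed between genotypes. Merged exons join those of all annotated transcripts, 7639 bases over 8 transcripts for *Gad1* and 2797 over 1 for *Slc32a1*. The rank of a gene therefore depends on this length, but its ratio of mutant to control does not. The levels of the ratios between genes given above depend on it too, but not their log2 differences between genotypes. In controls *Abat* was highest at 1623 ± 209 normalized counts per kilobase (SD, n = 4 pools), followed by *Slc32a1* (1445 ± 198), *Slc6a11* (1352 ± 163), *Gad1* (1059 ± 157), *Gad2* (979 ± 107), *Aldh5a1* (841 ± 46.9) and *Slc6a13* (87.4 ± 19.3). Of these neighbours, the ranges over libraries were separate for *Slc6a11* and *Gad1* and for *Aldh5a1* and *Slc6a13*, and overlapped for the other 4 pairs. In mutants *Gad1* (1497 ± 231) and *Gad2* (1362 ± 230.4) were above *Slc6a11* (1095 ± 24.2), with *Slc32a1* (1406 ± 291) between the decarboxylases and *Abat* (1741 ± 141) again highest. Among mutants the ranges of neighbours were separate for *Slc6a11* and *Aldh5a1* (813 ± 37.2) and for *Aldh5a1* and *Slc6a13* (88.6 ± 20.3), and overlapped for the others. *Gad1* exceeded *Slc6a11* per kilobase in every mutant library and in no control library.

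Among the other genes of the pathway, none of the 17 tested of 18 listed was called by edgeR, and 7 had an unadjusted p-value under 0.05 (18.2% of all tested genes). DESeq2 called 3 higher and none lower. The log2 fold change was positive for 13 and negative for 4, with a median of 0.17. The genotypes did not overlap for 6 with mutants above (10.7% of all tested genes) and 2 with mutants below (9.00%). In the list of 10 genes of glutamate and glutamine supply, 9 were positive. The most abundant were the astrocytic glutamate transporter *Slc1a2*, at 136% of control (log2 fold change 0.44, adjusted p = 0.200 from edgeR), and glutamine synthetase *Glul*, at 121% (0.27, adjusted p = 0.0730 from edgeR). Normalized counts of *Glul* ranged from 49534 to 52757 in controls and from 60212 to 65363 in mutants, without overlap. Of the words of 36 bases in *Glul* transcripts, 18.3% occur in another gene, so its count is less certain.

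The 3 genes that DESeq2 called were also called with the library run as a covariate, and they are named here after their values were seen. They were *Glul* (0.28, adjusted p = 0.0202 from edgeR in that fit), the glutamine transporter *Slc38a3* (0.37, adjusted p = 0.0431 from edgeR in that fit) and *Aldh1a1* (0.41, adjusted p = 0.00573 from edgeR in that fit). *Aldh1a1*, an aldehyde dehydrogenase that can form GABA from putrescine, averaged 1589 ± 267 normalized counts over controls (SD, n = 4 pools) and 2198 ± 253 over mutants (SD, n = 3 pools). *Aldh9a1*, of the same list of 5 genes, was at 85.0% of control. Of the genes for the supply of pyridoxal phosphate, *Pdxk* had a log2 fold change of -0.10 (adjusted p = 0.687 from edgeR), with 41.3% of its words shared with another gene, and *Pdxp* was not analysed here.

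**Figure D4:**
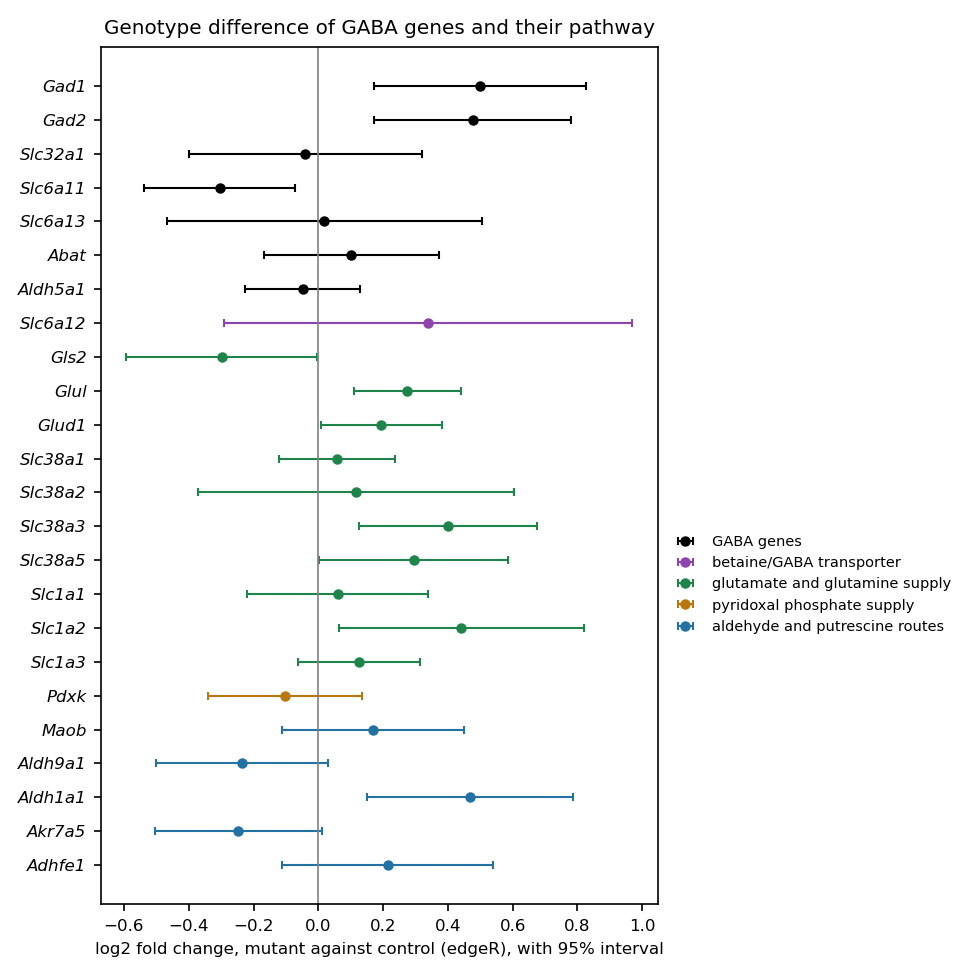
Log2 fold change of mutant against control from edgeR with its 95% interval before adjustment (x axis) for the 7 GABA genes in black and the 17 tested genes of their pathway, coloured by list. The intervals of *Gad1* and *Gad2* lie above 0 and that of *Slc6a11* below 0, and none of these genes passed the adjusted threshold.

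The profile over the 7 libraries was compared with that of the 13449 tested genes with a mean of at least 100 normalized counts, by Euclidean distance of log2 values around the gene mean. *Gad1* was nearest to *Aldh1a1* (distance 0.122) and *Bambi* (0.137), and *Gad2* to *Brinp3* (0.158) and *Itih3* (0.159), where the median gene was at 0.938 and 0.884. *Slc32a1* was nearest to *Pcdhb17* (0.113) and *Dapk3* (0.129), *Slc6a11* to *Cntn5* (0.122) and *Lasp1* (0.136), and *Slc6a13* to *Aebp1* (0.233) and *Aldh1a2* (0.277). *Abat* was nearest to *Nupl1* (0.0658) and *Ctnnd2* (0.0667), and *Aldh5a1* to *Aco1* (0.0547) and *Brd8* (0.0723). Neither decarboxylase was among the 2 genes nearest to *Slc32a1*.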

How the data were processed

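Forebrain RNA of 7 pools (4 *Lhx6*+/-, 3 *Lhx6*-/-) was read as 36 bp single ends. The strand setting of the counting is not given in the sources used here. Per the paper's methods and the submitters' processing notes, the authors trimmed reads with cutadapt 1.9.1, aligned them with Bowtie2 2.2.9 to the GRCm38 transcriptome of Ensembl release 84 and deposited RSEM 1.2.31 expected counts per gene, not normalized. Columns of the authors' comparison (DESeq2 fold changes and p-values) were not used, except gene symbols. Expected counts were rounded. Genes reaching 10 counts in 3 or more libraries were scaled by TMM and tested with edgeR 4.0.16 (quasi-likelihood F-test, R 4.3.3, no covariate), with Benjamini-Hochberg adjustment and a threshold of 0.05; limma 3.58.1 (voom) and DESeq2 1.42.0 were alternatives. A count of 0 allows up to 3 counts, 0.0788 to 0.0921 CPM, counting error only. A standard error was taken as the size of the log2 fold change divided by the root of its F statistic. Positions, exon lengths and exon overlaps came from the authors' annotation, Ensembl release 84 (GRCm38). Words shared between genes came from GENCODE vM21 (GRCm38, later than the authors' annotation), and start regions from RefSeq (GRCm38.p6). Columns carry a genotype and library number, so sex and RNA quality (RIN 9 to 10) could not be assigned to them. Library pairs differed beyond sampling noise (chi-square per degree of freedom at least 9.36). The test was tried on simulated data. The members and lists were chosen with earlier results of these data known. Genes were named from the 7 members, *Lhx6*, pathway genes that passed the test or otherwise the 2 most abundant of a list, the 4 most abundant and the called genes of marker lists, and the 2 genes nearest each member in profile; exceptions are stated. Lists were the pathway genes and markers of MGE- and CGE-derived interneurons, GABAergic transcription factors, striatal neurons, astrocytes, fibroblasts, choroid plexus, cortical excitatory neurons, thalamus and hypothalamus, forebrain, and hindbrain. Some genes of these lists are not reported here and were left out of list counts and sums. Alternatives were other tests, scalings, filters, unrounded counts, the run of library numbers and leaving out each library.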

Additional observations from a re-analysis of the deposited data

Results flagged for a closer look

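*Abat* in control libraries was set apart by 1 library. Control library 3 had 10156 normalized counts where the other controls had 13249 to 13505.5, a gap of 0.923 of the range of the 4 controls (SD 1616, n = 4 pools). Among the 9 sets of control values examined this way (the 7 genes, *Lhx6* and the *Gad1* to *Gad2* ratio) it was the one past the 95% limit of Dixon's test, which chance passes in about 1 of 20 sets. Control library 3 was also the lowest control for *Gad2*, *Slc32a1*, *Slc6a11* and *Slc6a13*, so for 5 of the 7 genes.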

How the results depend on the processing

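With all 7 libraries none of the 7 GABA genes was called; 2 were called higher with DESeq2, 2 with the library run as covariate and 2 in libraries 10 to 13 alone, and 0 to 1 when each library was left out in turn (1 without mutant library 5). For other pathway genes the count was 0 higher and 0 lower, against 3 higher with DESeq2, 3 higher with that covariate, and 2 higher and 1 lower in libraries 10 to 13. Marker genes called numbered 8 higher and 5 lower, and 1 to 8 higher and 3 to 5 lower with 1 library left out: 1 higher without mutant library 12 or 13, and 3 lower without mutant library 5 or 13. The log2 *Gad1* to *Gad2* ratio difference of 0.032 was 0.12 in libraries 2, 3 and 5, -0.040 in libraries 10 to 13 and -0.012 to 0.062 with 1 library left out. Among genes near 0, signs turned for *Slc32a1* (0.0040 in the edgeR fit of libraries 10 to 13, -0.19 to 0.11 with 1 library left out), *Slc6a13* (-0.36, and -0.13 to 0.19), *Slc38a2* (-0.062 in libraries 10 to 13) and *Slc1a1* (-0.021 to 0.15). *Gad1* kept a positive sign in all 19 alternatives (0.39 to 0.61), *Gad2* in all 19 (0.31 to 0.61) and *Slc6a11* a negative one in all 19 (-0.39 to -0.22). The cause was not tested. Other scalings moved the median gene to between -0.015 and 0.012. No paired analysis was possible because the columns carry no replicate number.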

Other observations

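Lists that bear less directly on GABA are given as values. Of 4 markers of cortical excitatory neurons, none was called by edgeR; *Slc17a7*, *Tbr1*, *Neurod6* and *Emx1* gave 0.25, -0.19, -0.11 and -0.46 on the log2 scale. All 5 choroid plexus markers had a negative log2 fold change with a median of -0.60 and none was called; their sum ranged from 4609 to 9869 normalized counts in controls and from 2263 to 7568 in mutants, so the genotypes overlapped. Of 6 markers of thalamus and hypothalamus, 4 were tested and none was called, with a median of -0.089. Of the 5 forebrain markers, none was called and the median was -0.064.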
